A study of Mus musculus with 93 samples.

Results

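The genes described here are 30 genes of red cell making, listed by name: the enzymes of heme synthesis, proteins that bring iron to it, proteins of the red cell membrane and its skeleton, cytosolic red cell proteins, and the transcription factors and receptor of the erythroid line. A gene was taken where the array annotation gave a probe set its symbol and no other, and it was read by its brightest probe set, the one with the highest mean over all 93 arrays. By that rule 27 of the 30 genes were measured, of 18193 genes in all, and Epb41, Ahsp and Trim58 were not analysed here. The 27 were 7 heme synthesis enzymes, 2 iron supply genes, 10 membrane and skeleton genes, 5 factors and receptor, and 3 cytosolic proteins.

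The arrays measured RNA of white blood cells from the cheek vein after lysis of the red cells, in female FVB/NJ mice. The tumor mice were MMTV/c-MYC transgenic, carrying the oncogene or a more stable point mutant of it under the hormone-responsive mouse mammary tumor virus promoter, and bore advanced mammary tumors. The controls were wild type, tumor-free, and matched for age and parity under the same continuous breeding, and the design text puts the average age at euthanization at 431 days. The labels number the tumor arrays within a training and a validation cohort, and they are compared here as late-numbered tumor arrays (training 6 to 32 and validation 9 to 33, n = 52), early-numbered tumor arrays (training 1 to 5 and validation 1 to 8, n = 13) and control arrays (14 of each cohort, n = 28). The labels tie no array to a named animal, so the p-values measure the spread between these arrays.

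A red cell precursor makes heme in its mitochondria and cytosol, starting with Alas2, the erythroid form of the first and limiting enzyme, and ending with Fech, which inserts iron into the ring. Gata1, Tal1, Lmo2 and Klf1 are transcription factors that drive these genes, the globins and the membrane genes, and Epor receives erythropoietin, the hormone that keeps erythroid progenitors alive. Reticulocytes, the youngest red cells of the blood, have lost the nucleus but still hold much of this mRNA, and platelets and their precursors share Gata1, Tal1 and Lmo2 with the red line.

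GATA factors bind DNA at short letters around GATA, and Klf1 binds C-rich boxes. The 250 bases before the start of transcription were read from RefSeq (build GRCm38.p6) and searched on both strands for AGATAA, with T also taken as its first base and G as its last, called GATA letters here, and for CCNCNCCC, where N is any base. A sequence was in the table for 20 of the 27 measured members. GATA letters were found in 12 of these 20 members, against 29.7% of 27025 genes, CCNCNCCC in 11 of 20 against 48.5%, both in 5 against 10.9%, and neither in 2 against 32.7%. A match describes letters and is not a bound site. The windows of 4 genes are shown because the results below turn on these genes: Alas2 (chrX:150547167-150547416, plus strand) is the gene the others were set against, Kel (chr6:41704326-41704575, minus strand) had the largest difference in late-numbered arrays, Klf1 (chr8:84901732-84901981, plus strand) is the factor that varied most closely with the membrane genes in late-numbered and control arrays, and Ppox (chr1:171281187-171281436, minus strand) is the member whose correlation with Alas2 was 0.0 in late-numbered arrays. Capitals mark the GATA letters and CCNCNCCC on either strand, and overlapping matches run together. The windows hold 1 GATA match and 4 CCNCNCCC matches in Alas2, 2 GATA matches in Kel, 1 in Klf1, and neither in Ppox.
Alas2: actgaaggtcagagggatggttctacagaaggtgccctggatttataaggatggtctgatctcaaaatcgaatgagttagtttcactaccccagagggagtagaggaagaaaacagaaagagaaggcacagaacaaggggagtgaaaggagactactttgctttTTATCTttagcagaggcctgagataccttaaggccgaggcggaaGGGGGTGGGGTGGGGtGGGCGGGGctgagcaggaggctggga
Kel: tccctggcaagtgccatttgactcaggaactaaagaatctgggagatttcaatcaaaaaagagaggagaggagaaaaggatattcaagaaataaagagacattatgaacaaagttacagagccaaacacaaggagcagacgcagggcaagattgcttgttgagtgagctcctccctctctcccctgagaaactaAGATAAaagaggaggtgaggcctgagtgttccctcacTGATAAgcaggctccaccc
Klf1: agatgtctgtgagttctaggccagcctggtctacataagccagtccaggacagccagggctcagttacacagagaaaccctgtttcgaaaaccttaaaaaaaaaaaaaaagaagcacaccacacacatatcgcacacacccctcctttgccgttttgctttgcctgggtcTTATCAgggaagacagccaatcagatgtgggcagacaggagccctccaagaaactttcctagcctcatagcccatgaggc
Ppox: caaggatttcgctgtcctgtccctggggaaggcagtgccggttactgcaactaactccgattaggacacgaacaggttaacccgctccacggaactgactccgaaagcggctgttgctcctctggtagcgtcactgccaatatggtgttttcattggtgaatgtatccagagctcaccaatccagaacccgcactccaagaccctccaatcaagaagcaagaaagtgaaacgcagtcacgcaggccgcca

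Before the results, several facts about the arrays bear on every comparison. The median of an array over all genes differed by group: its group median was 5.98 in late-numbered, 5.62 in early-numbered and 5.96 in control arrays. The spike-in RNA dap read between 6.57 and 10.8 in late-numbered tumor arrays, between 2.11 and 3.83 in early-numbered tumor arrays and between 1.74 and 3.55 in control arrays (log2), so it separates the late-numbered arrays from both other groups. The 5′ minus 3′ difference of the actin control had a median of -0.5 in late-numbered, -1.4 in early-numbered and -0.6 in control arrays, while that of the GAPDH control had medians of -1.2, -1.3 and -1.15 in the same groups. Whatever handling these marks stand for cannot be told apart from the array groups. White cell markers were present throughout, with mean log2 values of 10 neutrophil markers between 11.23 and 13.07 in late-numbered, 9.99 and 12.81 in early-numbered and 10.26 and 12.3 in control arrays. Red cell RNA was present as well: Alas2 lay at the 99.9th percentile of all genes by mean level. In these bulk samples a change in the number of reticulocytes or other erythroid cells and a change of RNA per cell cannot be told apart.

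Late-numbered tumor arrays had higher levels of most membrane genes, of Epor and Klf1, and of 2 heme enzymes than control arrays in the fit without control-probe components. Of the 27 members, 11 were higher, 3 were lower and 13 were not called (limma, Benjamini-Hochberg adjusted p under 0.05), with a median log2 difference of 0.339. Over all 18193 genes, 25.6% were called higher and 20.5% lower in the same comparison, 46.2% in all, with a median of 0.04. The 14 called members are thus to be read against a background in which nearly as large a share of genes was called. Membrane and skeleton genes were 6 higher and 0 lower of 10, with a median of 0.749.

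**Figure D1:**
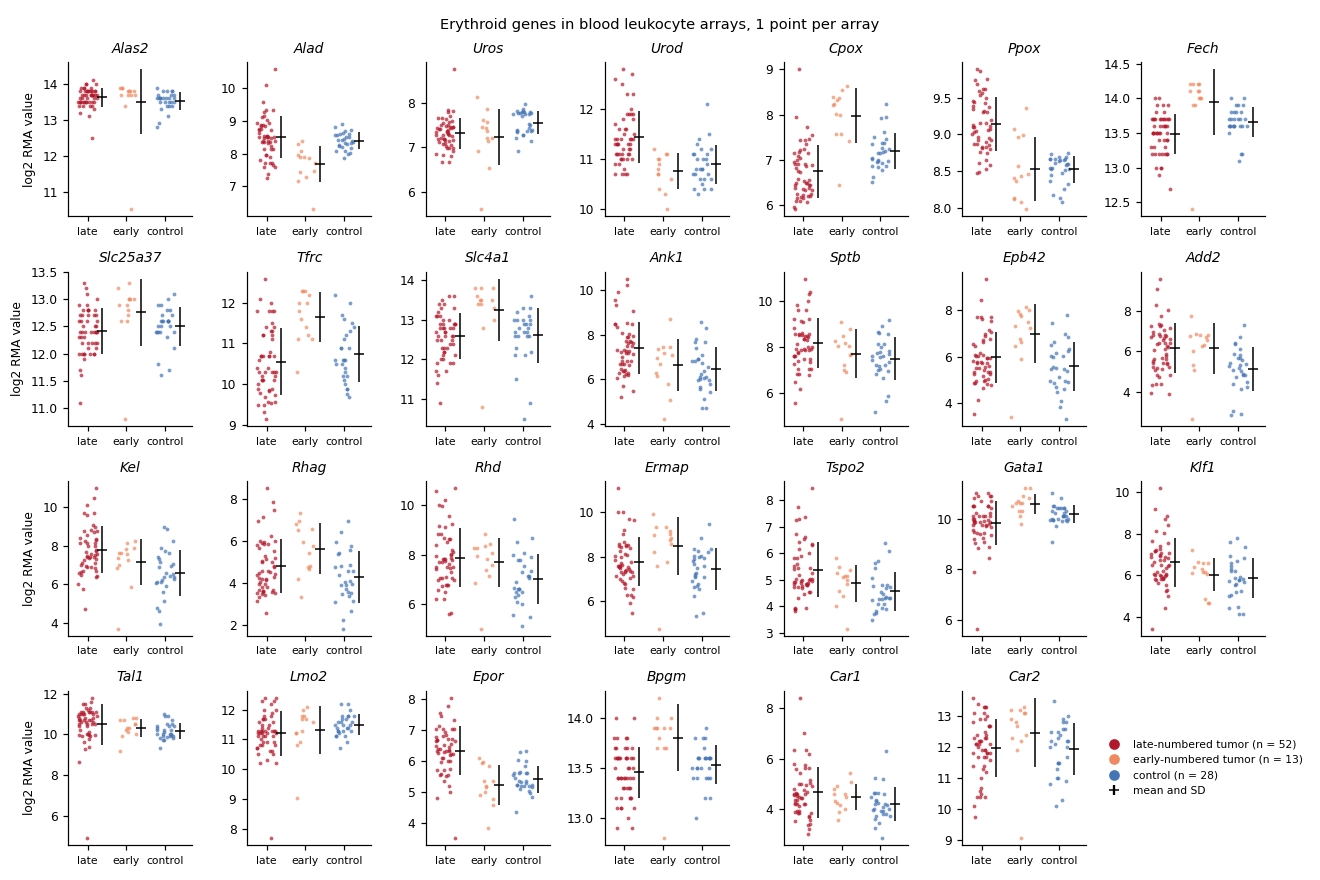
Log2 RMA value of each measured member in every array (1 point per array), with late-numbered tumor (n = 52), early-numbered tumor (n = 13) and control arrays (n = 28) from left to right and the mean and SD as a black bar. The groups overlap in every panel, Ppox and Epor in late-numbered arrays stand highest against control, and single arrays lie far from their group in many panels.

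Kel, the protein of the Kell blood group, had the largest difference. Its log2 value ran from 4.7 through a median of 7.57 to 11 in late-numbered tumor arrays, against 3.95, 6.47 and 8.97 in control arrays. Although 8 of 52 late-numbered arrays exceeded the highest control and 45 of 52 exceeded the control mean, the ranges overlapped widely. The difference was 1.17 ± 0.276 (SE), or 2.26-fold, with an adjusted p of 0.000211 (limma). Within the cohorts it was 1.225 in training (adjusted p = 0.00211) and 1.13 in validation (adjusted p = 0.0394).

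Add2, the beta subunit of adducin that caps actin in the membrane skeleton, ran from 3.88 through 6.23 to 9.6 in late-numbered arrays and from 2.84 through 5.24 to 7.29 in control arrays. It was 2.06-fold higher (log2 difference 1.04 ± 0.27, adjusted p = 0.000772, limma). Ank1, ankyrin, which ties the skeleton to the anion exchanger, was 1.93-fold higher by its brightest probe set (median 7.26 in late-numbered and 6.3 in control arrays, adjusted p = 0.00124), but its next brightest, with a mean of 6.18, had a difference of 0.15 (adjusted p = 0.607). Rhd, the Rh blood group protein, was 1.81-fold higher (medians 7.77 and 6.97, adjusted p = 0.00353), Tspo2, an erythroid membrane protein related to the translocator protein, 1.76-fold (medians 5.02 and 4.33, adjusted p = 0.00065), and Sptb, erythroid beta spectrin, 1.6-fold (medians 8.01 and 7.58, adjusted p = 0.0154). In the validation cohort alone Kel was the member of this group still called, and the others had differences between 0.577 and 0.999 with adjusted p between 0.0503 and 0.251. The other 4 membrane genes were not called. Rhag, the Rh-associated glycoprotein, had a difference of 0.51, Epb42, protein 4.2, one of 0.39 (a probe set as bright, with a mean of 5.99, was higher by 0.65, adjusted p = 0.041), and Ermap, a blood group protein of the immunoglobulin family, one of 0.34. Slc4a1, the anion exchanger band 3, averaged 12.58 ± 0.586 in late-numbered and 12.6 ± 0.69 in control arrays (SD).

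Rises and falls were mixed among the heme enzymes, with 2 higher, 3 lower and 2 not called. Ppox, protoporphyrinogen oxidase, the mitochondrial enzyme before Fech, stood furthest from control relative to its spread. It ran from 8.47 through 9.1 to 9.89 in late-numbered arrays, against 8.08, 8.59 and 8.75 in control arrays, and 45 of 52 late-numbered arrays lay above the highest control. The difference was 0.61 ± 0.0794 (SE), or 1.53-fold (adjusted p = 1.56e-10, limma). A further Ppox probe set of similar level rose by 0.71 (adjusted p = 3.85e-08), and a dim one at 1.89 was not called. Urod, uroporphyrinogen decarboxylase of the cytosol, was 1.46-fold higher in late-numbered arrays, with a range of 10.7 to 12.8 and a median of 11.3, against 10.3 to 12.1 and 10.8 in control arrays (adjusted p = 9.62e-06), and 47 of 52 late-numbered arrays exceeded the control mean. Its second probe set rose by 0.57 (adjusted p = 3.9e-05).

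Cpox, coproporphyrinogen oxidase, was lower by its brightest probe set, at 5.9 through 6.56 to 9.01 in late-numbered arrays against 6.5, 7.15 and 8.24 in control arrays. The log2 difference was -0.45 ± 0.126 (adjusted p = 0.00194, limma), and 24 of 52 late-numbered arrays lay below the lowest control. A dimmer Cpox probe set, with a mean of 4.65, went the other way (0.60, adjusted p = 2.32e-06), and the mean of all Cpox probe sets was higher by 0.12 with no call (adjusted p = 0.22). Uros, uroporphyrinogen III synthase, was likewise lower by its brightest probe set (-0.24, adjusted p = 0.0246) and higher by a dim one with a mean of 3.94 (0.54, adjusted p = 0.000838), so neither gene has a settled direction here. Fech was lower by 0.17 (adjusted p = 0.041), a call that was lost in 21 of 80 fits that each left out 1 array. A further bright Fech probe set, with a mean of 12.72, was lower by 0.265 (adjusted p = 0.00806, limma). Another, with a mean of 10.75, was not called, and a dim one, with a mean of 3.13, was higher by 0.21 (adjusted p = 0.0472). Alas2 itself averaged 13.63 ± 0.263 in late-numbered and 13.53 ± 0.257 in control arrays (SD) and was not called (0.10, adjusted p = 0.401), nor was Alad, aminolevulinate dehydratase, at 0.12. Alad spread more in late-numbered than in control arrays, though, with 11 of 52 arrays above the highest control and 9 below the lowest.

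**Figure D2:**
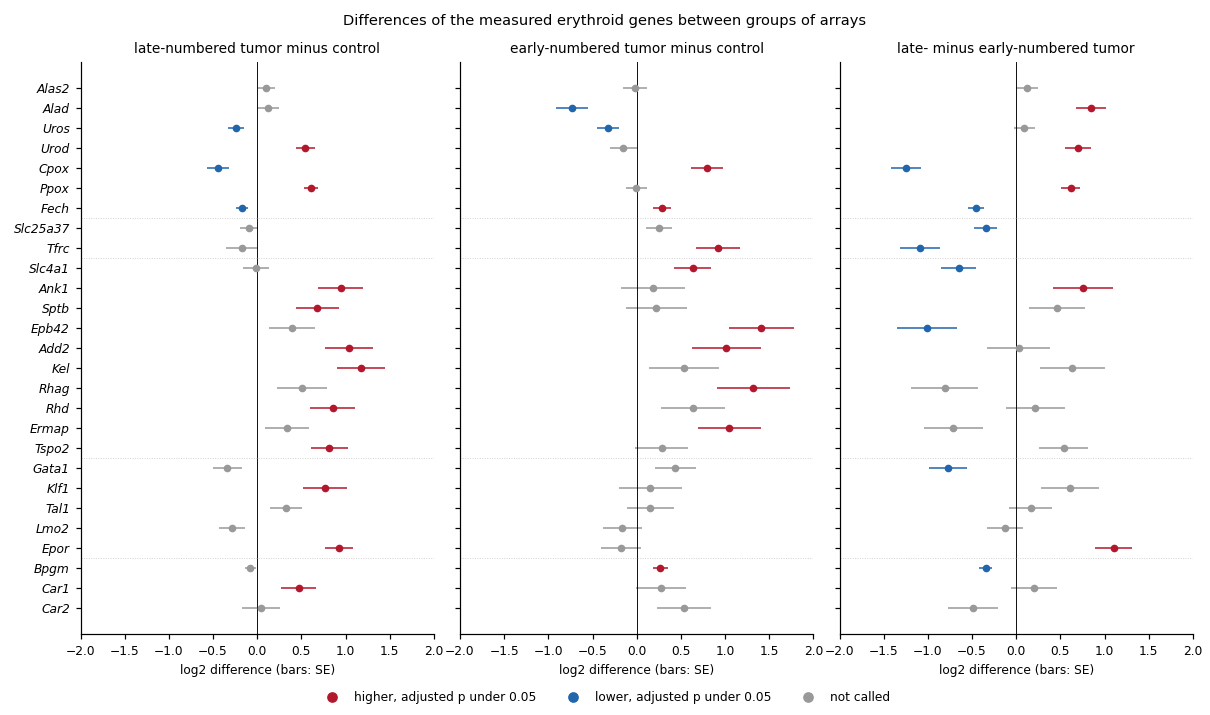
Log2 difference of each measured member with its SE (limma), for late-numbered tumor minus control, early-numbered tumor minus control and late-numbered minus early-numbered tumor from left to right, with roles parted by dotted lines. Red and blue points were called higher and lower at an adjusted p under 0.05. Cpox lies below zero on the left (-0.45) and above it in the middle (0.80), and Tfrc and Epb42 are called in the middle and right panels only.

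Iron supply genes were not called by their brightest probe sets. Slc25a37, mitoferrin, which carries iron into the mitochondrion, had a median of 12.4 in late-numbered and 12.6 in control arrays, and Tfrc, the transferrin receptor, medians of 10.35 and 10.6. A Tfrc probe set with a mean of 7.09 was not called either (-0.08), while a dimmer one, with a mean of 5.27, was higher by 0.74 (adjusted p = 0.00315, limma). Among the factors and receptor, 2 of 5 were higher. Epor ran from 3.51 through 6.36 to 8.06 in late-numbered arrays and from 4.34 through 5.34 to 6.34 in control arrays, and 27 of 52 late-numbered arrays lay above the highest control. It was 1.9-fold higher (log2 difference 0.93 ± 0.157, adjusted p = 3.94e-07, limma). Klf1 ran from 3.42 through 6.5 to 10.2 in late-numbered and from 4.12 through 5.8 to 7.78 in control arrays, 1.7-fold higher (adjusted p = 0.00739). Gata1 (-0.34, adjusted p = 0.0801), Lmo2 (-0.29) and Tal1 (0.32) were not called. Tal1 had 13 of 52 late-numbered arrays above the highest control, and without late-numbered validation array 19, which read 4.94 against a group median of 10.7, its difference was 0.43 and called (adjusted p = 0.00258).

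Of the cytosolic proteins, Car1, carbonic anhydrase 1, was 1.39-fold higher in late-numbered arrays, and the call was lost in 31 of 80 fits that each left out 1 array. Bpgm, which makes the 2,3-bisphosphoglycerate that lowers oxygen affinity of hemoglobin, averaged 13.45 in late-numbered and 13.53 in control arrays, and Car2, carbonic anhydrase 2, 11.98 and 11.94. The calls of Epor, Kel, Ppox and Urod were the 4 of 14 that held in each of these other fits: with the mean of all probe sets, without the intensity trend, without dim probe sets, with median centring, array weights, the actin covariate or a replicate block, in each cohort alone, against the training controls only, and without 3 deviating arrays. The fits that each left out 1 array are not among these. With 3 principal components of the control probe sets as covariates 8 members were called, 5 higher and 3 lower, against 20.4% of all genes, and of the 14 calls those of Urod and Ank1 were the 2 that kept their direction and call. No member differed between cohorts in the late-numbered difference, nor did any of the 18193 genes (interaction, limma, adjusted p under 0.05). Of 45037 probe sets, 990 had an unadjusted p under 0.05, fewer than that threshold flags by chance on average.

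Early-numbered tumor arrays had higher Epb42, Rhag, Ermap, Add2, Slc4a1, Tfrc and Cpox than control arrays in the fit without control-probe components, and lower Alad. Of the 27, 9 were higher, 2 were lower and 16 were not called, with a median of 0.271, against 34.3% of all genes called higher and 29% lower (63.3% in all) and a median over all genes of 0.071. Both tumor groups were set against the same control arrays. With dim probe sets (mean under 4.79) left out, 16.2% of all genes were called higher and 46.7% lower, with a median of -0.241. In that fit 8 of 25 members were called higher and 2 lower, with a median of 0.269. Epb42 ran from 3.4 through 7.31 to 8.13 in early-numbered arrays and from 3.32 through 5.49 to 7.78 in control arrays, and 12 of 13 early-numbered arrays exceeded the control mean. It was 2.65-fold higher (log2 difference 1.41 ± 0.368, adjusted p = 0.000624, limma), but its other probe set, of the same brightness (means 5.99 and 6.0), had a difference of 0.28 and was not called (adjusted p = 0.532). Ank1 was not called by its brightest probe set (0.18), while its next brightest was higher by 1.55 (adjusted p = 5e-06). Rhag was 2.49-fold higher (medians 5.77 in early-numbered and 4.06 in control arrays, adjusted p = 0.00412), Ermap 2.07-fold (8.84 and 7.53, adjusted p = 0.00832), Add2 2.02-fold (6.55 and 5.24, adjusted p = 0.0186) and Slc4a1 1.55-fold (13.5 and 12.75, adjusted p = 0.00738). The call of Add2 was lost without early-numbered training array 4 (adjusted p = 0.0515, limma). Of its 4 dimmer probe sets, 1 was also called higher (0.69, mean 3.78) and the others were not called.

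Tfrc was 1.89-fold higher in early-numbered arrays, with a range of 10.3 to 12.3 and a median of 11.8, against 9.69 to 12.2 and 10.6 in control arrays (adjusted p = 0.000978). The array's own transferrin receptor control probe sets averaged 7.83 at the 3′ end, 6.14 in the middle and 3.88 at the 5′ end in early-numbered arrays, against 6.73, 5.24 and 3.26 in control arrays. Cpox, lower in late-numbered arrays by the same probe set, was 1.74-fold higher in early-numbered arrays, at 6.45 through 8.22 to 8.64 against 6.5, 7.15 and 8.24 in control arrays (adjusted p = 9.28e-05), and its other 2 probe sets were also higher. Fech (1.22-fold, adjusted p = 0.0101) and Bpgm (adjusted p = 0.00413) rose by less than 1 SD of the early-numbered arrays. That SD includes validation array 6, which read 12.4 for Fech against 13.9 in the next validation array. Leaving out 1 array at a time gave Fech differences from 0.264 to 0.412. By other Fech probe sets it was higher by 0.41 (mean 12.72, adjusted p = 0.00292, limma), not called (mean 10.75) and lower by 0.44 (mean 3.13). The 2 further bright probe sets of Bpgm had differences of -0.07 and -0.22 that were not called. Alad fell to a median of 7.87 in early-numbered arrays, against 8.4 in control arrays (log2 difference -0.73 ± 0.182, adjusted p = 0.000354), and 12 of 13 early-numbered arrays lay at or below the control mean. Uros was lower by 0.33 (adjusted p = 0.0225), but the call was lost when validation array 2 or 6 was left out. Its dim probe set, with a mean of 3.94, had a difference of 0.23 and was not called (adjusted p = 0.326, limma). None of the 5 factors and receptor was called, with differences between -0.18 and 0.44.

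This comparison changed with the covariates, the cohort and 1 array. With 3 principal components of the control probe sets as covariates 19 members were called, all 19 lower, with a median of -0.925, against 49.1% of all genes called and a median over all genes of 0.03, and 9 of the 11 calls had the opposite sign. In the training cohort alone 15 members were called, all 15 higher, against 51.2% of all genes called in that fit, with Epb42 at 2.32, Rhag at 2.27 and Ermap at 2.02. In the validation cohort alone 1 member was called, against 42.4% of all genes. It was Alad, which was lower by 0.95 (adjusted p = 0.00251), while Epb42 had a difference of 0.78, Rhag one of 0.67 and Ermap one of 0.35. The difference between the cohorts was called for no member, and for 0.341% of all genes. Early-numbered validation array 6 was the lowest of its group in 24 of 27 members. Without it and without late-numbered validation arrays 9 and 19, a choice made after seeing the data, 16 members were called in the early-numbered comparison, 15 higher and 1 lower (66.4% of all genes), and Alas2 was among those higher (0.23, adjusted p = 0.00479). Within the validation cohort 5 were called without array 6, 4 higher and 1 lower (42.7% of all genes). With the actin 5′ minus 3′ difference as a covariate 6 were called (45.5% of all genes), and 0 of the 11 calls held in all of the listed kinds of fit.

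Set against each other, late-numbered arrays had 5 members higher and 8 lower than early-numbered arrays, with 14 not called and a median of 0.09, against 31.5% of all genes called higher and 38.3% lower (69.8% in all) and a median of -0.079. Epor was 2.15-fold higher in late-numbered arrays (medians 6.36 in late-numbered and 5.2 in early-numbered arrays, adjusted p = 2.8e-06, limma), Alad 1.8-fold (8.5 and 7.87, adjusted p = 7.01e-06), Urod 1.62-fold (11.3 and 10.8, adjusted p = 1.14e-05) and Ppox 1.53-fold (9.1 and 8.43, adjusted p = 3.09e-07). Ank1 was higher by 0.76 (adjusted p = 0.0405), but its next brightest probe set was lower by 1.40 (adjusted p = 5.28e-06), and the mean of all 4 was lower by 0.25 and not called. Lower in late-numbered arrays were Cpox (log2 difference -1.25 ± 0.167, adjusted p = 3.04e-10), Tfrc (-1.09 ± 0.23, adjusted p = 2.16e-05), Epb42 (-1.01, against 0.36 and no call by its equally bright probe set), Gata1 (-0.78 ± 0.215, adjusted p = 0.00099), Slc4a1 (-0.65), Fech (-0.46), Bpgm (-0.35) and Slc25a37 (-0.34). An equally bright Slc4a1 probe set had a difference of -0.325 and was not called (adjusted p = 0.118, limma). The 2 further bright probe sets of Bpgm had a difference of 0.119 each and were not called. Gata1 had medians of 9.9 in late-numbered and 10.6 in early-numbered arrays, and all 13 early-numbered arrays lay at or above 9.8. Calls for Cpox, Epor, Fech, Ppox and Tfrc were the 5 of 13 that held in all of the listed kinds of fit without those components. With the 3 control-probe components 15 members were called, 12 higher and 3 lower (33.9% of all genes), and 6 of the 13 calls had the opposite sign, while those of Alad, Urod, Ank1 and Gata1 kept their direction and call.

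The 65 tumor arrays as a single group had 11 members higher, 1 lower and 15 not called against control, with 22.7% of all genes called higher and 19.6% lower (42.3% in all). The higher members were Add2, Kel, Ank1, Rhd, Tspo2, Rhag, Sptb, Epor, Klf1, Ppox and Urod, from 2.07-fold for Kel to 1.33-fold for Urod, and Uros was lower. With the 3 control-probe components 18 members were called, all 18 lower, against 42.3% of all genes called, 20.3% higher and 22% lower. Of the 12 calls, 10 had the opposite sign. The call of Ppox was the 1 of 12 that held in all of the listed kinds of fit without these components.

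Apart from the differences between groups, the members were among the more variable genes of these arrays. Their median SD was 0.884 in late-numbered, 0.701 in early-numbered and 0.669 in control arrays, against 0.378, 0.477 and 0.274 for the 11054 genes at or above the level of the dimmest member. The membrane genes carried the spread, with a median SD of 1.14 in late-numbered, 1.18 in early-numbered and 1.0 in control arrays, while the heme enzymes had 0.371, 0.559 and 0.259. Alas2, Fech and Bpgm, which averaged 13.63, 13.49 and 13.45 in late-numbered arrays where the highest value of the whole table was 14.9, had SDs of 0.263, 0.287 and 0.259 there. Per unit of Alas2, Kel rose by 3.96 and Rhd by 3.57 in late-numbered arrays (slope, log2), so a small difference in Alas2 stood beside a large one in these genes, and whether the brightest probe sets are compressed was not tested.

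Within each group the members rose and fell together from array to array. Each other member was correlated with Alas2 over the arrays of a group by a permutation test with 100000 resamples, with Benjamini-Hochberg adjustment over 26 members. In late-numbered arrays all members but Ppox correlated positively with Alas2 (25 of 26, median Pearson r 0.78, n = 52, highest adjusted p = 0.00151), and the same number did so without the 2 arrays farthest from the median of Alas2 (median r 0.80). In control arrays it was 20 of 26 (median r 0.77, n = 28, highest adjusted p = 0.0296), the exceptions being Alad, Uros, Cpox, Ppox, Gata1 and Tal1. In early-numbered arrays 23 of 26 correlated (median r 0.80, n = 13), but without the 2 farthest arrays, of which validation array 6 with an Alas2 value of 10.5 is 1, the median r was 0.22 and 0 were called, so that relation rests on those arrays. By rank correlation 25 members were called in late-numbered, 3 in early-numbered (Fech, Slc25a37 and Lmo2) and 19 in control arrays. Within the training and the validation cohort the median r was 0.81 and 0.80 in late-numbered arrays and 0.77 and 0.79 in control arrays. Over the 18166 other genes the median r with Alas2 was 0.03 in late-numbered, 0.05 in early-numbered and -0.02 in control arrays, and 5.99% of them in late-numbered and 3.57% in control arrays had an r over 0.5, against 24 and 19 of 26 members. The members were read on the same arrays, and RMA normalized all genes of an array together, so these correlations are not independent of each other.

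**Figure D3:**
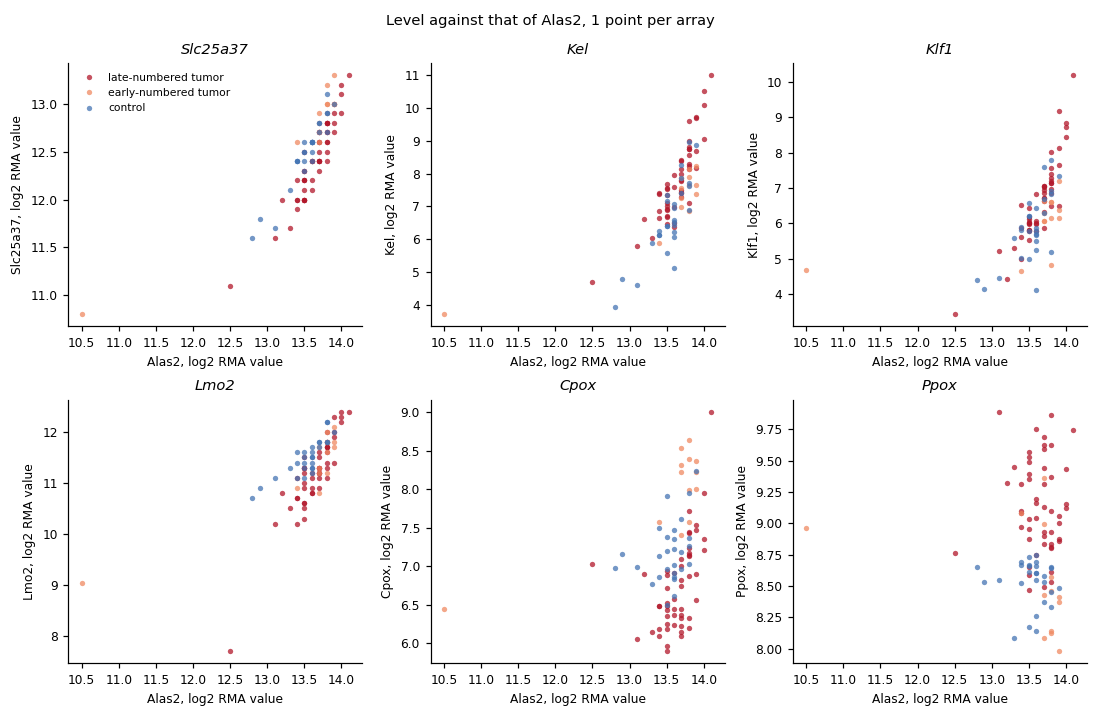
Log2 RMA value of 6 members against that of Alas2, 1 point per array, in late-numbered tumor (red), early-numbered tumor (orange) and control arrays (blue). Slc25a37, Kel, Klf1 and Lmo2 climb with Alas2, Cpox does so with a wide spread, and Ppox shows no such trend (r = 0.0 in late-numbered arrays).

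By role, Slc25a37 followed Alas2 most closely, with r = 0.93 (rho = 0.93) in late-numbered and 0.96 (rho = 0.94) in control arrays (adjusted p = 1.3e-05 and 1.86e-05 for r). Fech had r = 0.91 in late-numbered and 0.92 in control arrays, Lmo2 0.91 and 0.84, Bpgm 0.84 and 0.89, and Slc4a1 0.88 and 0.89. The 10 membrane genes ranged from 0.69 for Rhag to 0.88 for Slc4a1 in late-numbered arrays. Klf1 followed with 0.88 (rho = 0.89) in late-numbered and 0.69 (rho = 0.61) in control arrays (adjusted p = 1.3e-05 and 5.2e-05 for r). The middle enzymes of the pathway were looser: in late-numbered arrays Alad had r = 0.56, Uros 0.55, Urod 0.59 and Cpox 0.48, and in control arrays Urod had 0.72 and Uros -0.13. Ppox, whose late-numbered level was the most clearly raised of the heme enzymes, had r = 0.0 in late-numbered and -0.07 in control arrays. Its late-numbered r was -0.32 in the training and 0.29 in the validation cohort. With each array centred on its median it was 0.25 in late-numbered and 0.44 in control arrays.

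Among the members themselves the median r over 351 pairs was 0.78 in late-numbered, 0.72 in early-numbered and 0.75 in control arrays. The 45 pairs of membrane genes were the tightest set, with a median r of 0.94 in late-numbered, 0.87 in early-numbered and 0.92 in control arrays, and no pair of them in late-numbered arrays was below 0.87. Pairs of heme enzymes had medians of 0.61, 0.67 and 0.24 in the same groups, and pairs of a factor with a membrane gene 0.57, 0.68 and 0.36. With the 10 membrane genes Klf1 had a median r of 0.92 in late-numbered and 0.86 in control arrays and Lmo2 0.83 and 0.84, while Gata1 had 0.53 and 0.11 and Tal1 0.43 and -0.03. These are descriptions, since pairs share genes and arrays. They include early-numbered validation array 6, the lowest of its group in 24 of 27 members. They also include late-numbered validation array 19, which read 5.67 for Gata1 and 4.94 for Tal1. Pairs were not read without these arrays.

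**Figure D4:**
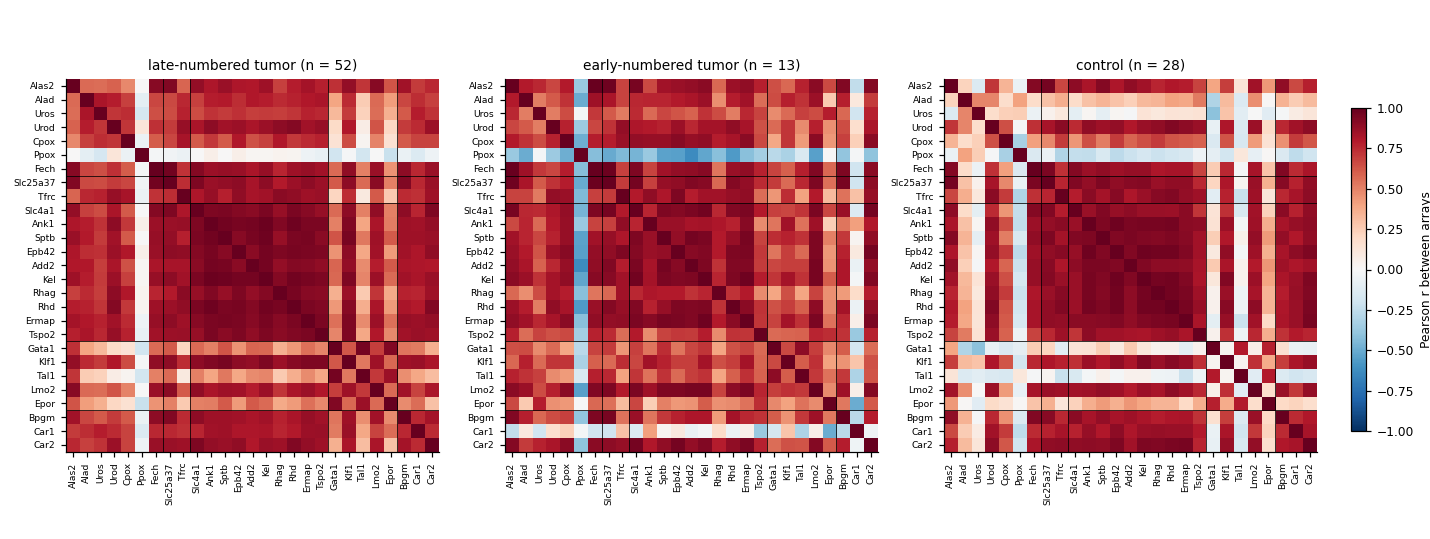
Pearson r between arrays for every pair of measured members in late-numbered tumor, early-numbered tumor and control arrays, from -1 (blue) to 1 (red), with roles parted by black lines. The block of 10 membrane genes is dark red in each group (median r 0.94, 0.87 and 0.92), the Ppox row is pale in late-numbered and bluish in early-numbered arrays, and Gata1, Tal1 and Epor are paler in control than in late-numbered arrays.

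Some of the factors also varied with platelet genes. Because Gata1 and Tal1 are also made in platelets and their precursors, the 5 factors and receptor were correlated with the mean of 14 measured platelet markers, a relation chosen after seeing the data (15 relations, permutation test, adjusted over all 15). In late-numbered arrays Gata1 had r = 0.89 (rho = 0.78, adjusted p = 2.5e-05), Tal1 0.92 (rho = 0.76) and Epor 0.79 (rho = 0.88), and without the 2 farthest arrays they had 0.80, 0.72 and 0.82. In control arrays Gata1 had r = 0.79, Tal1 0.80 and Epor 0.79 (adjusted p = 2.5e-05 each). Lmo2 and Klf1 in control arrays had r = 0.03 and 0.17 (adjusted p = 0.861 and 0.456), and in late-numbered arrays Lmo2 had 0.65, or 0.09 without the 2 farthest arrays, and Klf1 0.50, or 0.32 without them. The early-numbered arrays (n = 13) differed from this for Epor, with r = 0.19 (adjusted p = 0.566), and for Klf1, with 0.62 (rho = 0.74, adjusted p = 0.0284 for r). Without the 2 farthest arrays Klf1 had 0.60 there. Gata1 had 0.84, Tal1 0.80 and Lmo2 0.59 in the early-numbered arrays. The platelet markers themselves were 2 higher and 1 lower of 14 in late-numbered against control arrays, where 46.2% of all genes were called. Their mean log2 value had a median of 12.19 in late-numbered, 11.83 in early-numbered and 11.96 in control arrays. The part of platelet RNA in the levels of Epor, Gata1 and Tal1 was not tested.

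Other measures moved with Alas2 as well. The mean of 16 measured reticulocyte maturation genes had r = 0.94 (rho = 0.93, adjusted p = 3e-05) with Alas2 in late-numbered and 0.91 (rho = 0.85, adjusted p = 6e-05) in control arrays. The 18S ribosomal RNA control, raised in tumor arrays (mean 10.64 in late-numbered, 10.79 in early-numbered and 9.87 in control arrays), had r = 0.64 (rho = 0.61, adjusted p = 3e-05) with Alas2 in late-numbered and 0.78 (rho = 0.79, adjusted p = 6e-05) in control arrays. For neutrophil markers in late-numbered arrays r was -0.30 (adjusted p = 0.05) and rho -0.46 (adjusted p = 0.00148), with r = -0.49 without the 2 farthest arrays. In control arrays their r was -0.17 (adjusted p = 0.521). Immature myeloid markers had r = -0.34 (adjusted p = 0.0264) in late-numbered and -0.07 (adjusted p = 0.763) in control arrays. B cell markers had r = 0.44 (adjusted p = 0.0022), or 0.22 without the 2 farthest, in late-numbered and -0.29 (adjusted p = 0.208) in control arrays. Proliferation genes had r = 0.14 (adjusted p = 0.416) and rho = 0.69 (adjusted p = 3.6e-05) in late-numbered arrays, with r = 0.78 without the 2 farthest arrays, and r = 0.51 (adjusted p = 0.017) in control arrays. These belong to 18 such relations per group. The 10 genes outside the list whose level was most like that of Alas2 over the 52 late-numbered arrays, among genes brighter than the median probe set, were Isca1, Slc25a39, Sh3glb1, Fam220a, Ube2r2, Slc48a1, Ube2o, Rnf10, Marchf2 and Cdr2, with r between 0.943 and 0.968. Isca1 takes part in building iron-sulfur clusters, Slc25a39 is a mitochondrial glutathione carrier, Slc48a1 carries heme, and Ube2o is a ubiquitin enzyme that clears proteins from reticulocytes.

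Other genes of the same pathways were counted from lists of related genes. These counts are to be read against all genes. Of those, 25.6% were called higher and 20.5% lower (46.2% in all) in late-numbered against control arrays. In late-numbered against control arrays, other heme and iron genes were 11 higher and 4 lower of 18 measured (median 0.319), other red cell membrane genes 8 higher and 2 lower of 18 (median 0.247), other erythroid factors and signals 6 higher and 5 lower of 18 (median -0.1), and reticulocyte maturation genes 5 higher and 1 lower of 16 (median 0.18). Alas1, the form of the first heme enzyme that other tissues use, was higher by 1.05 (adjusted p = 3.65e-13, limma), Hmox1, which breaks heme down, by 0.90 (adjusted p = 3.71e-08), and Slc25a38, the mitochondrial glycine carrier, by 0.78 (adjusted p = 2.23e-12). Add1, the alpha subunit of adducin, was lower by 0.67 (adjusted p = 3.59e-28) while Add2 was higher. Among factors, Myb was lower by 0.87 (adjusted p = 1.05e-13) and Bcl11a by 1.16 (adjusted p = 1.04e-10). Of the globin genes, 3 of 6 measured were higher, all by less than 0.6. White cell markers moved in the same comparison: B cell markers were 0 higher and 8 lower of 9, T cell markers 0 higher and 6 lower of 9, and neutrophil markers 7 higher and 0 lower of 10. In early-numbered against control arrays, other heme and iron genes were 4 higher and 6 lower of 18 and reticulocyte maturation genes 8 higher and 1 lower of 16, with proliferation genes 4 higher and 1 lower of 9. There, 34.3% of all genes were called higher and 29% lower (63.3% in all).

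Single arrays stood far from their group across the members. Late-numbered validation array 9 was the highest of its group in 21 of 27 members, with a median deviation of 2.10 from the group medians and 20 members more than 1 above them. Kel read 11 there, Klf1 10.2 and Rhag 8.52, while its platelet mean was 12.2 and thus near the group median. Late-numbered validation array 19 was the lowest in 17 members (median deviation -1.70), with Gata1 at 5.67, Tal1 at 4.94, Lmo2 at 7.7 and Klf1 at 3.42. Its platelet mean was 7.96, against a group median of 12.19, and its T cell mean of 11.35 was the highest of the late-numbered arrays. Early-numbered validation array 6 had a median deviation of -1.95. In control arrays, validation array 1 was the highest in 19 members (median deviation 1.30) and training array 12 the lowest in 15. The cause of these deviations was not tested.

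**Figure D5:**
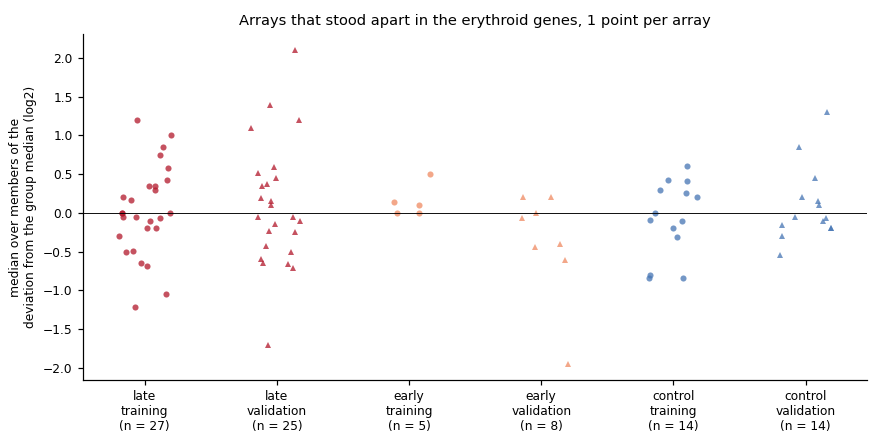
Median over the 27 members of the deviation of an array from the median of its group (log2), 1 point per array, by group and cohort, with late-numbered tumor, early-numbered tumor and control from left to right. Most arrays lie within 1 of zero, and late-numbered validation 9 (2.10), late-numbered validation 19 (-1.70) and early-numbered validation 6 (-1.95) lie farthest out.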

How the data were processed

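Leukocyte RNA of each sample was, per the labels, amplified with the NuGEN Ovation system and hybridized to an Affymetrix mouse array. The deposited values are on a log2 scale and come, per the labels, from RMA, a method of background correction, quantile normalization across arrays and a median polish for each probe set. No version of it was stated, and whether these values hold the study's standardization on control probe sets is not stated. Values ran from 1.23 to 14.9 with at most 3 significant digits. Arrays hold no counts, so the number of arrays limits the precision. The 45037 probe sets other than 64 controls were fitted with limma 3.58.1 in R 4.3.3 (group and cohort, eBayes with intensity trend, two-sided), and p-values were adjusted by Benjamini-Hochberg over all of them. Of these probe sets, 34945 had 1 gene symbol, 932 several and 9160 none in the platform annotation, and a gene was read by its brightest. Members, lists and tests were chosen with earlier results of these data known. All measured members were named, with up to 4 genes of another list by smallest p in the late-numbered comparison, and the 10 genes most like Alas2. Correlations used NumPy 2.4.6 and SciPy 1.17.1 in Python 3.11.15. Alternatives were the mean of all probe sets, no trend, no dim probe sets (mean under 4.79), median centring, array weights, each cohort alone, control subsets, an actin covariate, 3 control-probe principal components, a replicate block and leaving out each array. The fits and correlations were tested on simulated data first.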

Additional observations from a re-analysis of the deposited data

Results flagged for a closer look

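Within each tumor cohort of the early-numbered arrays (5 training and 8 validation arrays), the highest and lowest array of each member was set against the others by Dixon's criterion, in 54 tests, of which chance flags about 1 in 20. An array stood apart in 13. The tests share arrays and the members vary together, so these 13 are not independent results. Validation array 6 was low in 11 of these: Alas2 read 10.5 against 13.4 in the next array, Fech 12.4 against 13.9, Slc25a37 10.8 against 12.6, Slc4a1 10.8 against 12.8 and Bpgm 12.8 against 13.7. Among the membrane genes there, Epb42 read 3.4 against 5.92, Add2 2.66 against 5.06, Rhd 5.0 against 6.83 and Ermap 4.74 against 7.55. Lmo2 read 9.04 against 10.8 and Car2 9.07 against 11.9. Training array 4 was high in the other 2, with Ank1 at 8.69 against 7.46 and Ermap at 9.94 against 9.14. Groups of more than 10 arrays were not examined this way.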

How the results depend on the processing

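Counts of called members within 1.5 times those reported held under most alternatives. They are listed with the share of all genes called in the same fit. The exceptions in late-numbered against control arrays (14 called) were the validation cohort alone with 4 (31.5%) and 3 control-probe principal components with 8 (20.4%). In early-numbered against control arrays (11 called) the validation cohort alone gave 1 (42.4%), or 5 (42.7%) without early-numbered array 6. The actin covariate gave 6 there (45.5%), validation controls only 5 (51.5%), and 3 control-probe principal components 19 (49.1%), all 19 lower. In late-numbered against early-numbered arrays (13 called) the actin covariate gave 8 (49.9%). In all tumor against control arrays (12 called) the validation cohort alone gave 1 (17.6%), and the principal components 18 (42.3%), all 18 lower. The dap spike-in, which separates the late-numbered arrays, is among those control probe sets. So are probe sets for the transferrin receptor, the product of the member Tfrc. The 18S control is there too, and it correlated with Alas2 (r = 0.64 in late-numbered and 0.78 in control arrays). The components are therefore not independent of the members. The correlation with Alas2 in early-numbered arrays lost all calls, with 0 left, without the 2 farthest arrays. With these components the sign turned for 3 of the 14, 9 of the 11, 6 of the 13 and 10 of the 12 members called in late-numbered against control, early-numbered against control, late-numbered against early-numbered and all tumor against control arrays. Directions also turned with the mean of all probe sets for Uros (0.152) and Cpox (0.123) in late-numbered against control, for Bpgm (-0.008) in early-numbered against control, for Ank1 (-0.25) in late-numbered against early-numbered, and for Uros (0.112) and Cpox (0.216) in all tumor against control arrays. In the training cohort alone they turned for Alas2 in early-numbered against control (0.334) and Ank1 in late-numbered against early-numbered (-0.258), and Alas2 in early-numbered against control also turned without 3 deviating arrays (0.228). Leaving out each array in turn gave 12 to 14 calls in late-numbered against control, 10 to 14 in early-numbered against control, 13 to 15 in late-numbered against early-numbered and 10 to 14 in all tumor against control. Label numbers did not pair the samples (28 pairs, r between -0.468 and 0.237, 11 over 0.1). With the replicate block 14, 11, 13 and 11 members were called in the same order of comparisons, and the 1 call it changed was that of Rhag in all tumor against control arrays, which was lost. The cause of these changes was not tested.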
